A study of Mus musculus with 30 samples.

Results

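The synaptic vesicle release machinery was followed here through 8 genes, Snap25, Stx1a, Vamp2, Syt1, Cplx1, Syn1, Syn2 and Sv2a. They were chosen by name for their known role, at a time when earlier results of these data were known. All 8 were found among the 23993 genes of a table of RNA-seq levels in 24 libraries of interneurons sorted from the medial prefrontal cortex. The mice were C57BL/6 animals of 6 to 12 weeks that carried 1 copy of a Cre driver, Sst Cre or Pvalb Cre, and the Ai9 reporter, so tdTomato marks any cell that expresses the driver gene or did so earlier in its life. The libraries come from Sst females (7), Sst males (7) and Pvalb males (7), all without stress, and from Sst males (3) after 14 days of chronic unpredictable stress (CUS). The labels name 6 further samples, which are not analysed here.

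Neurons release transmitter by fusing vesicles with the plasma membrane at the active zone. The vesicle protein VAMP2 zips together with syntaxin 1 and SNAP-25 of the plasma membrane into the SNARE complex, which draws the membranes together. Complexin binds the complex and holds it ready, the calcium sensor synaptotagmin 1 triggers fusion, synapsins tether the reserve of vesicles, and SV2A is a vesicle membrane glycoprotein that supports release and is the binding site of the antiepileptic drug levetiracetam. GABA interneurons and excitatory neurons share this core, and fast-spiking Pvalb interneurons are known for fast, tightly timed release.

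In the GRCm38.p6 annotation the 8 genes lie on 7 chromosomes: Snap25 at chr2:136713439-136782428, Sv2a at chr3:96181227-96195183, Cplx1 at chr5:108518554-108550027, Stx1a at chr5:135023482-135051100, Syn2 at chr6:115134902-115282626, Syt1 at chr10:108497650-109010980, Vamp2 at chr11:69088528-69092381 and Syn1 at chrX:20860511-20920918. Syn1 is the only X-linked gene of the 8.

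Levels are given as FPKM, fragments scaled for gene length and library size, and differences as log2(FPKM + 1) with their standard error (SE). Libraries of a group were averaged where they were near-identical, which left 22 samples. The pairs were SST0-M with SST1-M (SD of the log2 ratio over genes 0.0212, against 0.267 for the next closest pair) and PV0-M with PV2-M (0.0170 against 0.225). Of the male Sst controls, 3 samples have titles with a running number, as the Pvalb males and the Sst females apart from SST-F do. Another 3 have titles that read like a date, as all CUS samples do. They are called numbered and dated below, and SST-F, whose title has no number, was counted as numbered. Small nucleolar and Cajal body RNAs held 53.5% to 75.7% of the summed FPKM in the dated libraries against 1.87% to 8.29% in the numbered ones. Samples also lay in close subsets. Among the Pvalb males these were PV3-M with PV6-M, and PV1-M with PV4-M and PV5-M. Among the Sst females they were SST1-F with SST3-F and SST4-F, and SST2-F with SST5-F and SST6-F. The 3 CUS samples formed another, as did the dated controls SST040241L and SST04241LL. Within the subsets the SD of the log2 ratio was 0.218 to 0.277, and between samples of different subsets of a group it was 0.413 to 1.01. The labels do not say which libraries came from separate mice, so p-values measure the spread between these samples, which may be technical.

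The labels were checked against marker genes. Pvalb averaged 0.373 FPKM in the Sst controls and 2.64 FPKM in the Pvalb samples. But Sst was lower in the samples labelled Sst (9.24 FPKM) than in those labelled Pvalb (23.3 FPKM), against the label. By library, Sst ran from 0 (SS04031R) to 49.3 FPKM (SST-F) in the Sst controls. In the Pvalb libraries it ran from 12.3 to 30.5 FPKM. Pvalb was at 0.882 and 0.898 FPKM in PV0-M and PV2-M, below its level in SST-F (1.93) and SST6-F (1.28). Xist, which is transcribed from the inactive X of female cells, was at 333.1, 302.8 and 300.2 FPKM in PV1-M, PV4-M and PV5-M, although they are labelled male, and at most 6.64 FPKM in every other library labelled male. Microglia markers were far above neuronal ones in all samples, with 12 genes summing to 3738 to 11045 FPKM in the Sst controls, against 38.6 to 172.5 for 12 pan-neuronal genes. The release genes were therefore measured in samples with much RNA of other cells, in which fewer neurons and less of a transcript per neuron cannot be told apart.

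All 8 genes were detected in every library, and all passed the filter on low values (more than 0.4 FPKM on average in the samples of the comparison) in every comparison. In the 13 Sst controls, Vamp2 was the most abundant by median (59.0 FPKM), followed by Snap25 (27.9), Syn2 (10.00), Syn1 (7.54), Sv2a (5.50), Cplx1 (4.20), Syt1 (3.18) and Stx1a (3.01). Between neighbours in this order, ranges over samples overlapped everywhere except between Snap25 and Syn2. In the 6 Pvalb samples the order was Snap25 (131.4), Vamp2 (93.8), Syn1 (47.2), Cplx1 (38.9), Syt1 (12.7), Syn2 (12), Stx1a (11) and Sv2a (5.43), and only Vamp2 and Syn1 did not overlap.

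**Figure D1:**
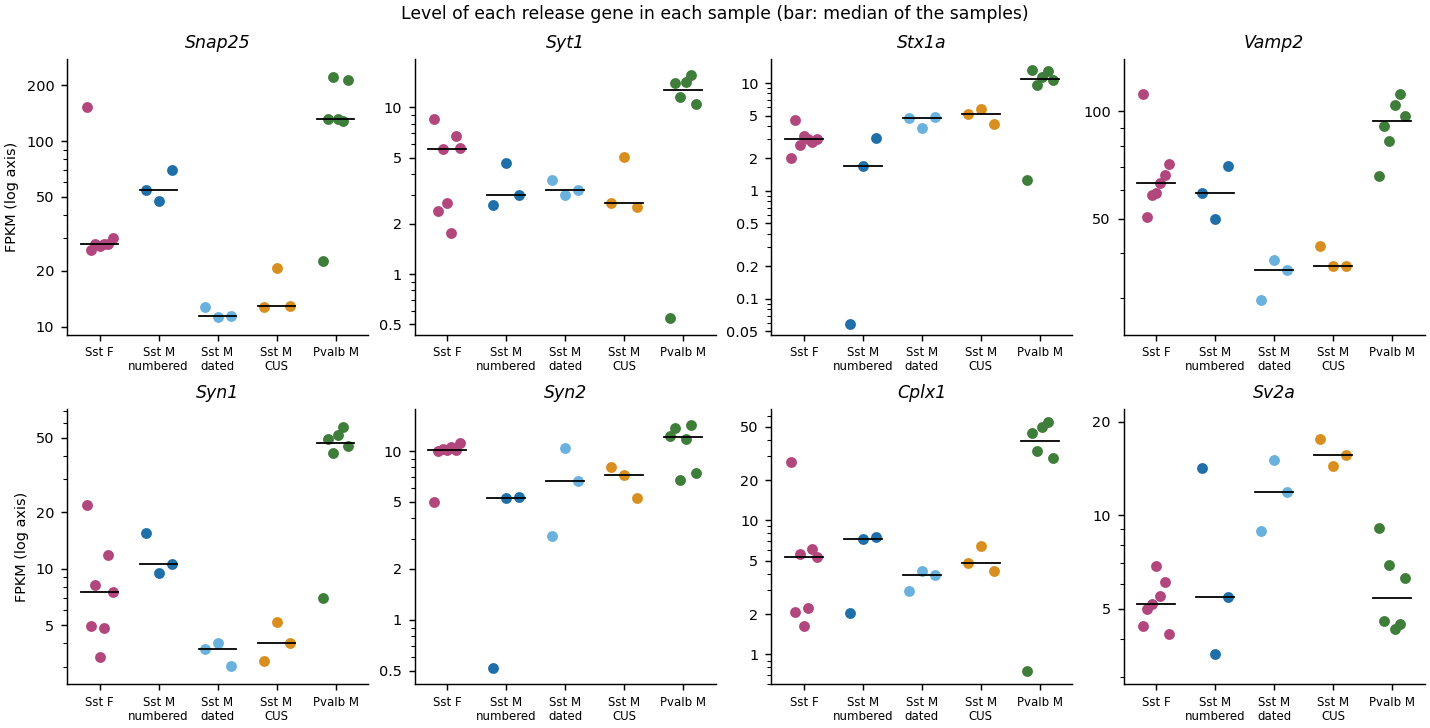
FPKM of each of the 8 release genes (log axis) in each of the 22 samples, by group, with numbered and dated male Sst controls apart. Bars are medians. Of the 6 Pvalb samples, 5 lie above every Sst control for Cplx1, Syn1, Stx1a and Syt1, and for these genes the average of PV0-M and PV2-M lies far below the other 5.

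The first comparison set the Sst controls (13 samples) against the Pvalb samples (6) and asks whether the release genes differ between the interneuron subtypes. Cplx1, Snap25, Stx1a and Syn1 were lower in the Sst samples, by 2.5 to 4.5 times on the scale of the fit, and the other 4 genes did not pass the test. This is 4 of 8 genes, where 7.80% of the 14524 genes tested passed in either direction and 4.50% passed as lower in Sst (limma, Benjamini-Hochberg adjusted p under 0.05). The median log2 difference of the 8 genes was -1.17, and that of all genes tested was 0.00. The levels behind these calls split the Pvalb samples, and the calls did not survive every treatment of the close libraries, as given below.

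Syn1 encodes synapsin I, which ties vesicles to each other and to actin. It was at 3.02 to 21.8 FPKM in the Sst controls (median 7.54) and at 7.01 to 57.3 in the Pvalb samples (median 47.2). Apart from the average of PV0-M and PV2-M (7.01), the Pvalb samples PV1-M (49.1), PV3-M (41.8), PV4-M (52.0), PV5-M (57.3) and PV6-M (45.2) all lay above the highest Sst control, SST-F. The difference was -2.18 ± 0.40 (SE, adjusted p = 0.00377 by limma), and among the 8 genes Syn1 had the smallest adjusted p.

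Cplx1 encodes complexin 1, the clamp and facilitator of the SNARE complex. Its Sst controls ran from 1.63 to 27.4 FPKM (median 4.20), and its Pvalb samples from 0.750 to 54.5 (median 38.9). The Pvalb values were 44.8 in PV1-M, 33.0 in PV3-M, 49.7 in PV4-M, 54.5 in PV5-M, 29.2 in PV6-M and 0.750 in the average of PV0-M and PV2-M. So 5 of 6 Pvalb samples were above every Sst control and 1 was below every Sst control. The difference was -2.16 ± 0.57 (SE, adjusted p = 0.0251 by limma).

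The plasma membrane SNAREs moved the same way. Snap25 ran from 11.3 to 152.4 FPKM in the Sst controls (median 27.9) and was at 22.4 in the average of PV0-M and PV2-M, 221.2 and 212.9 in PV3-M and PV6-M, and 131.1, 131.7 and 127.9 in PV1-M, PV4-M and PV5-M. SST-F, the highest Sst control, reached above all but 2 of the Pvalb samples. The difference of Snap25 was -1.87 ± 0.48 (SE, adjusted p = 0.0224 by limma). Stx1a, which encodes syntaxin 1A, ran from 0.0583 to 4.89 FPKM in the Sst controls (median 3.01) and from 1.27 to 13.3 in the Pvalb samples (median 11), of which 5 of 6 were above every Sst control. Its difference was -1.32 ± 0.36 (SE, adjusted p = 0.0288 by limma).

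The calcium sensor and the vesicle SNARE lay in the same direction without passing. Syt1 was at 10.5 to 15.6 FPKM in 5 Pvalb samples and at 0.543 in the average of PV0-M and PV2-M, against 1.77 to 8.55 in the Sst controls, so here too 5 of 6 lay above every Sst control and 1 below, with a difference of -1.02 ± 0.39 (SE, adjusted p = 0.103 by limma). Vamp2 ran from 65.7 to 111.9 FPKM in the Pvalb samples and from 29.6 to 111.6 in the Sst controls. Its difference of -0.69 ± 0.22 (SE) had an adjusted p of 0.0510 by limma.

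The remaining vesicle genes differed less. Syn2, the second synapsin gene, was at 6.74 to 14.3 FPKM in the Pvalb samples and at 0.520 to 11.1 in the Sst controls (difference -0.61 ± 0.35 SE, adjusted p = 0.281 by limma). Sv2a was at 4.28 to 9.11 FPKM in the Pvalb samples and at 3.57 to 15.0 in the Sst controls, with overlapping ranges and a difference of 0.19 ± 0.26 (SE, adjusted p = 0.688 by limma), and this sign flipped to -0.11 against Sst females alone and to -0.02 without the dated samples. Among the Pvalb samples Sv2a was highest where 6 of the others were lowest, in the average of PV0-M and PV2-M.

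The calls rest on how the Pvalb samples are counted. With the close subsets averaged, 8 Sst samples stood against 3 Pvalb samples, none of the 8 genes passed (1 at an unadjusted p under 0.05, Syn1), and 0.00690% of all genes did. The differences were then -1.53 ± 0.60 (SE) for Syn1, -1.21 ± 0.76 for Snap25, -1.17 ± 0.89 for Cplx1 and -1.03 ± 0.58 for Stx1a. Without PV1-M, PV4-M and PV5-M, the samples with high Xist, 0 of 8 passed (2 at an unadjusted p under 0.05, 0.0964% of all genes called), with Syn1 at -1.63 and Snap25 at -1.70. Leaving out the average of PV0-M and PV2-M raised the calls to 6, with Syt1 and Vamp2 added, and the share of all genes called to 14.7%. Leaving out PV1-M, PV3-M, PV4-M, PV5-M or PV6-M left 1, Syn1, each time, with 389 to 828 genes called in all. Leaving out SS04031R, SST-F, SST4-M or the average of SST0-M and SST1-M added Vamp2 to the 4, with 1157 to 1910 genes called in all.

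Against Sst males only (6 samples), 2 of 8 genes were called, Syn1 at -2.28 ± 0.49 (SE) and Vamp2 at -0.99 ± 0.23 (SE), where 3.41% of all genes were called. Against Sst females only (7 samples), 3 of 8 were called, Syn1 at -2.10 ± 0.46 (SE), Snap25 at -1.68 ± 0.52 and Stx1a at -1.23 ± 0.36, where 25.1% of all genes were called. Syn1 was thus called as lower against both sexes. All of these fits share the Pvalb samples.

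The promoters of the called genes are shown because these genes passed the test between the Sst and the Pvalb samples in this fit. The RefSeq annotation (GRCm38.p6) holds 8 promoters of 6 of the 8 genes, and Snap25 and Vamp2 are without an entry. Printed are the 250 bases before the annotated start, 5′ to 3′ on the gene's strand, with matches of the motifs in capitals.
Syn1, chrX:20920919-20921168, minus strand: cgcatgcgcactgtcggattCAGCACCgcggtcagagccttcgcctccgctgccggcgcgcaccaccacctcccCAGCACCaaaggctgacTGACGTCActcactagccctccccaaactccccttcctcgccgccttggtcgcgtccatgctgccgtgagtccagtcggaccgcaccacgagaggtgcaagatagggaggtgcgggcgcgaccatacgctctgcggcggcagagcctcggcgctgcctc
Cplx1, chr5:108550028-108550277, minus strand: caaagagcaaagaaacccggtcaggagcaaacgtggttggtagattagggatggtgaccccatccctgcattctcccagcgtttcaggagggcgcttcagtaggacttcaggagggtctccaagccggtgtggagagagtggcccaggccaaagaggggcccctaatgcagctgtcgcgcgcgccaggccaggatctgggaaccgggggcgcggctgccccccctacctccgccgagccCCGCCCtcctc
Stx1a, chr5:135023232-135023481, plus strand: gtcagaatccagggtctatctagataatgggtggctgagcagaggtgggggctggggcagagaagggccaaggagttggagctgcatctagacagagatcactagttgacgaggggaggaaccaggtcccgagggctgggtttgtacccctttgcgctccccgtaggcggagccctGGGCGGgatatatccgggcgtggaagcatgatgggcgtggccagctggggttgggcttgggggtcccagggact

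The letters of 4 motifs were searched on both strands: the cAMP response element TGACGTCA, the GC box GGGCGG, the TATA box TATAAA and CAGCACC, the left part of the RE1 element that the neuronal gene repressor REST binds. Syn1 held CAGCACC at positions -230 and -176 from the start and TGACGTCA at -159. Of the 32817 promoters of the annotation, 5.73% held CAGCACC and 1.55% TGACGTCA in the same window. The GC box stood at -74 in Stx1a and, on the other strand, at -11 in Cplx1, and 5 of the 8 promoters of the 6 genes held it, where 32.7% of all promoters did. The TATA box, held by 12.4% of all promoters, was in none of the 8, and 0 matches overlapped another. A match is a description of the letters, and whether any factor binds there was not measured.

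The genes around the release core were described by 5 lists of presynaptic genes, without the 8 genes themselves. Of the 89 genes tested, 19 were lower in the Sst samples, 2 were higher and 68 did not pass, with a median difference of -0.28 (limma). With close libraries averaged 0 of 89 passed (4 at an unadjusted p under 0.05), and without the 3 samples with high Xist 0 of 91 passed (20 at an unadjusted p under 0.05), with medians of -0.14 and -0.20. As a comparison, the SNAREs that serve other membrane traffic had 0 lower and 1 higher of 25 tested (Stxbp3a, 0.81 ± 0.17 SE), with a median of -0.03. Without the 8 genes, the list of neuronal SNAREs and their regulators had 2 lower of 18 tested, among them Cplx2, the second complexin, at 9.83 FPKM on average in Sst and 40.9 in Pvalb (-1.80 ± 0.36 SE). Stx3 was higher, at 3.19 and 1.52 FPKM (0.91 ± 0.28 SE).

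Among the other synaptotagmins, 4 of 10 tested were lower in Sst (Syt13 at -1.27, Syt5 at -1.15, Syt6 at -1.12 and Syt16 at -0.77) and Syt3 was higher at 0.94. Of the 13 listed, Syt2, Syt9 and Syt10 did not pass the filter on low values, so they were not tested in this comparison. Of the vesicle proteins, 4 of 18 were lower: Rph3a, a Rab3 effector, at -2.11 ± 0.46 (SE), Slc17a7, the vesicular glutamate transporter of excitatory neurons, at -1.75 ± 0.40, the vacuolar proton pump subunit gene Atp6v1g2 at -1.54 ± 0.33 and Dnajc5 at -0.53 ± 0.14. Of the active zone genes, 4 of 18 were lower: Bsn, which encodes the scaffold bassoon, at -1.43 ± 0.30 (SE), Erc2 at -1.01 ± 0.29, Rimbp2 at -0.94 ± 0.23 and Apba1 at -0.76 ± 0.22. Of the vesicle endocytosis genes, 5 of 25 were lower, with Snap91 at -1.39 ± 0.36 (SE), Dnm1 at -1.14 ± 0.35, Pacsin1 at -0.77 ± 0.22 and Ap2s1 at -0.59 ± 0.17 furthest. The most abundant genes of this list were Hspa8 (560.0 FPKM on average in Sst and 473.3 in Pvalb), the clathrin light chain gene Clta (156.4 and 127.5), Bin1 (137.7 and 131.1) and Picalm (124.1 and 126.8), with differences of -0.08 to 0.16 that did not pass.

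Some abundant genes of the other lists were not called. Among the SNARE regulators these included Napa (18.3 FPKM in Sst and 19.0 in Pvalb), which with Nsf takes used SNARE complexes apart. Among the synaptotagmins Syt11 (56.2 and 41.6 FPKM) and among the vesicle proteins Atp6v0a1 (39.5 and 41.6 FPKM) did not pass.

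**Figure D2:**
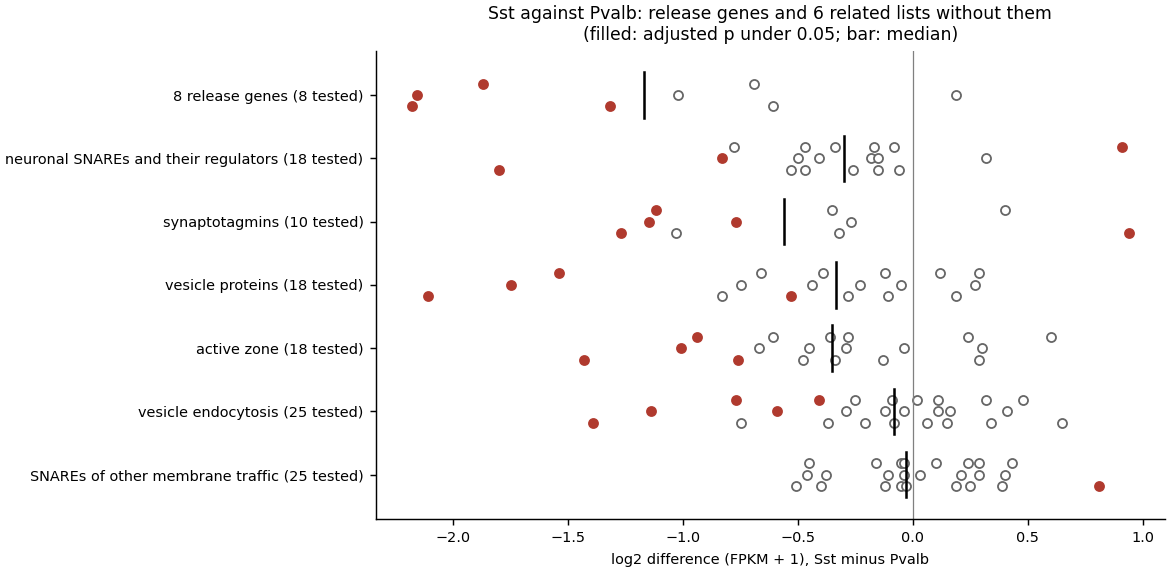
Log2 difference (FPKM + 1) between Sst controls and Pvalb samples for each tested gene of the release genes and of 6 lists without them, with medians as bars and filled points past an adjusted p of 0.05. The medians run from -1.17 for the 8 release genes to -0.03 for SNAREs of other membrane traffic.

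Markers of cell types also differed in the same comparison, and not all in the direction of the release genes. Of the pan-neuronal markers 4 of 12 tested were lower in Sst (median -0.89), of the excitatory neuron markers 4 of 8 (median -0.94; Camk2a was at 65.2 FPKM in Sst and 393.5 in Pvalb), of the interneuron markers 2 of 10 (Sst and Pvalb, median -0.27) and of the microglia markers 1 of 12 (C1qc, median -0.55). The endothelial markers were higher in Sst in 9 of 10 (median 2.28). Of the oligodendrocyte markers 1 of 10 was higher and 1 lower, as of the astrocyte markers, where Slc1a2 was listed at 0 in every Sst control. The excitatory markers summed to 41.2 to 293.8 FPKM in the Sst controls and to 76.3 to 579.1 in the Pvalb samples, and Emx1 was at 0 in all Sst females and all dated males. The microglia markers summed to 7909 to 9089 FPKM in the Pvalb samples and the endothelial markers to 12.1 to 138.7, against 20.9 to 284.8 in the Sst controls. The interneuron markers summed to 35.1 to 347.8 FPKM in the Sst controls and to 198.8 to 280.6 in the Pvalb samples, with Vip at 0 in all dated samples and Dlx2 at 0 in all Pvalb samples.

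Sample by sample, the release genes stood high where these neuronal markers did. The average of PV0-M and PV2-M had a mean log2(FPKM + 1) of 2.91 over the 8 release genes, 1.53 over the pan-neuronal markers, 1.67 over the excitatory markers and 3.36 over the endothelial markers. The other 5 Pvalb samples were at 4.71 to 4.97 for the release genes, 3.19 to 3.31 for the pan-neuronal markers, 3.07 to 3.24 for the excitatory markers and 0.81 to 1.00 for the endothelial markers. SST-F, at 4.16 for the release genes, was at 3.59, 2.82 and 3.93 for the same 3 lists. The part of the other cells in the differences of the release genes was not tested.

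**Figure D3:**
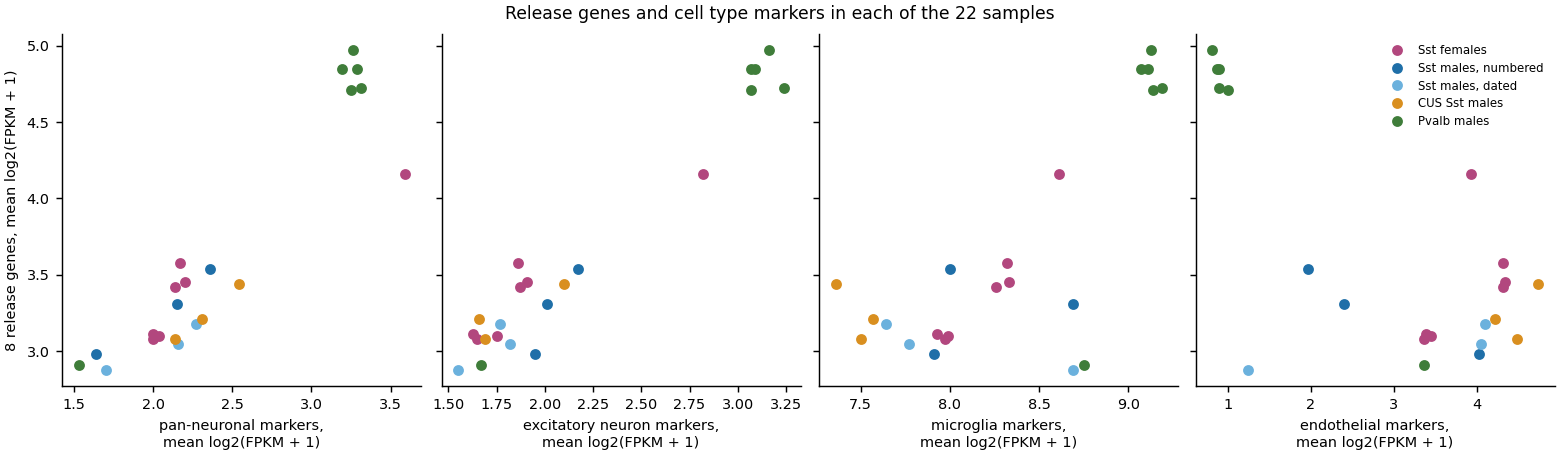
Mean log2(FPKM + 1) of the 8 release genes against that of pan-neuronal, excitatory neuron, microglia and endothelial markers in the 22 samples, coloured by group. Of the Pvalb samples, 5 lie at 4.71 to 4.97 for the release genes with pan-neuronal markers at 3.19 to 3.31, and the average of PV0-M and PV2-M lies at 2.91 with pan-neuronal markers at 1.53.

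The 8 genes did not all vary together within groups. After each of 5 groups (numbered and dated males apart) was centred on its own mean, the 15 pairs among Snap25, Stx1a, Vamp2, Syt1, Cplx1 and Syn1 had Pearson's r of 0.26 to 0.94 over the 22 samples. Sv2a had r of -0.66 to -0.20 with these 6, and Syn2 had r of -0.37 to 0.36. Of 13248 other genes with a mean above 1 FPKM, those most like the mean of the 8 included Fbxl16 (r = 0.97), Camk2a (0.96), Cplx2 (0.95) and Panx2 (0.95), with Spearman's rho from 0.88 to 0.94. These are descriptions over samples that share libraries, and the average of PV0-M and PV2-M and SST-F lie furthest from their groups.

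The second comparison asks whether the release genes differ between the sexes in Sst mice. None of the 8 genes passed with 7 females against 6 males, although 3 had an unadjusted p under 0.05 and 11.7% of the 14498 genes tested were called (limma). Their median difference was 0.24 (females minus males) and that of all genes was 0.07. The direction of several of them depended on which males were used, and for Snap25, Syn1, Stx1a and Cplx1 the sign differed between the numbered and the dated males.

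Snap25 shows this most. The females lay at 26.0 to 29.9 FPKM in 6 samples and at 152.4 in SST-F. The numbered males had 47.5 and 69.7 FPKM in SST3-M and SST4-M and 54.5 in the average of SST0-M and SST1-M, and the dated males had 12.7, 11.3 and 11.4. So 6 of 7 females were below every numbered male and 7 of 7 above every dated male. The difference was 0.43 ± 0.51 (SE, adjusted p = 0.596 by limma) against all males, -0.66 ± 0.47 (adjusted p = 0.403) against the numbered ones and 1.51 ± 0.46 (adjusted p = 0.0211) against the dated ones.

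Syn1 followed the same pattern, with a median of 7.54 FPKM in the females, 9.47, 10.6 and 15.5 in the numbered males and 3.74, 4.01 and 3.02 in the dated males. Its difference was -0.55 ± 0.43 (SE) against numbered and 0.91 ± 0.42 against dated males, neither called. Stx1a went the other way, with 0.82 ± 0.36 (SE) against numbered and -0.45 ± 0.20 against dated males, neither called. In the numbered males Stx1a was at 1.70 and 3.06 FPKM and, in the average of SST0-M and SST1-M, at 0.0583, the lowest level of any release gene in the data.

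The genes with unadjusted p under 0.05 were Syn2, Vamp2 and Sv2a. Syn2 ran from 4.99 to 11.1 FPKM in the females (median 10.2) and from 0.520 to 10.5 in the males (median 5.28), a difference of 0.97 ± 0.37 (SE, adjusted p = 0.0915 by limma). It was higher in females than in every numbered male in 6 of 7 samples. Vamp2 ran from 50.7 to 111.6 FPKM in the females and from 29.6 to 70.3 in the males (0.55 ± 0.23 SE, adjusted p = 0.122 by limma). Sv2a ran from 4.13 to 6.87 FPKM in the females and from 3.57 to 15.0 in the males (-0.66 ± 0.28 SE, adjusted p = 0.127 by limma). Without SST3-M it was called (-0.88, adjusted p = 0.0300 by limma), as were 1886 of the 14531 genes tested in that fit.

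Cplx1 and Syt1 were spread widely among the females, along the close subsets. Cplx1 was at 2.06, 1.63 and 2.22 FPKM in SST1-F, SST3-F and SST4-F, at 5.62, 6.08 and 5.35 in SST2-F, SST5-F and SST6-F and at 27.4 in SST-F, against 2.05 to 7.56 in the males. Syt1 was at 2.38, 2.68 and 1.77 FPKM in the first of these subsets, at 5.62, 6.70 and 5.72 in the second and at 8.55 in SST-F, against 2.60 to 4.61 in the males. Their differences were 0.13 ± 0.47 (SE) and 0.29 ± 0.29, and that of Cplx1 was -0.05 against numbered and 0.32 against dated males.

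Within the kinds of titles, 0 of 8 genes were called with numbered males only (2 at an unadjusted p under 0.05, Stx1a and Syn2, 3.41% of all genes called). With dated males only, 3 of 8 were called, Snap25, Vamp2 (0.93 ± 0.21 SE) and Sv2a (-1.02 ± 0.19 SE), where 41.5% of all genes were called, so 3 of 8 is near that background. Of the lists without the 8 genes, 2 of 88 presynaptic genes tested were higher in females (Syt12 and Ston2) and 4 lower (Syngr1, Ppfia4, Hspa8 and Picalm), with a median of 0.08. Of the SNAREs of other membrane traffic, Stx17 was higher and Stx2 lower. Marker genes that were higher in females included Thy1, Sst (15.5 FPKM in females and 1.90 in males) and Rorb, and Csf1r, Ctss and Cx3cr1 of microglia were lower. The endothelial, oligodendrocyte and astrocyte markers had 0 called (4, 1 and 2 genes at an unadjusted p under 0.05), with medians of 0.94, 0.22 and 0.37 (limma). The part of these cells in the values of the release genes was not tested.

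The third comparison asks what 14 days of CUS did to the release genes in Sst males, with 3 CUS samples against 6 controls. None of the 8 passed, also at an unadjusted p under 0.05, and their median difference was 0.10 (CUS minus control) against 0.02 for all genes. Of the 14319 genes tested 1 was called (0.00698%), Slc1a2, which was listed at 0 in every male control, and 1070 had an unadjusted p under 0.05 (limma). The 3 CUS samples have dated titles, so the numbered controls differ from them in title as well as in stress.

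Against the dated controls all 8 differences lay between 0.00 and 0.41, and 0 of 8 were called (0.00705% of all genes, 0 of 8 at an unadjusted p under 0.05). Sv2a, at 17.6, 14.4 and 15.6 FPKM after CUS and 8.91, 15.0 and 11.8 in the dated controls, had the widest difference, 0.41 ± 0.20 (SE, adjusted p = 0.647 by limma). Its ranges overlapped. Snap25 was at 12.7, 20.7 and 12.9 FPKM after CUS and 12.7, 11.3 and 11.4 in the dated controls (0.33 ± 0.20 SE, adjusted p = 0.654 by limma). With 3 samples on each side, differences of this size could not be told from the spread. Of the dated controls, only SS04031R has a title that begins like those of the CUS samples. It lay apart from SST040241L and SST04241LL (SD of the log2 ratio 0.635 to 0.656). Its microglia markers summed to 11045 FPKM, against 4914 and 5478 in those controls. The part of this sample in the differences was not tested.

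The other genes were as close to the dated controls. Vamp2 was at 42.0, 37.0 and 37.0 FPKM after CUS and 29.6, 38.4 and 36 in the dated controls. Syn1 was at 3.22, 5.18 and 4.01 against 3.74, 4.01 and 3.02, and Stx1a at 5.19, 5.71 and 4.15 against 4.70, 3.83 and 4.89. Syt1, Syn2 and Cplx1 had medians of 2.66, 7.19 and 4.79 FPKM after CUS and 3.18, 6.68 and 3.90 in the dated controls, with overlapping ranges.

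Against the numbered controls 2 of 8 were called as lower after CUS, Snap25 at -1.84 ± 0.26 (SE, adjusted p = 0.00927) and Syn1 at -1.31 ± 0.28 (adjusted p = 0.0271), where 16.1% of all genes were called (limma). These 2 genes also set the numbered and dated controls apart, which is given next. CUS and the kind of title cannot be told apart in the comparison with numbered controls. Of the presynaptic lists, 0 of 87 other genes tested were called after CUS (5 at an unadjusted p under 0.05), and of the marker lists Slc1a2 alone. The medians of the marker lists were 1.47 for endothelial, 1.15 for oligodendrocyte, -0.88 for microglia, 0.33 for astrocyte, 0.19 for pan-neuronal, -0.03 for excitatory and -0.07 for interneuron genes, and their part in the values of the release genes was not tested.

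The last comparison set the dated against the numbered male Sst controls, 3 against 3, since the labels give these samples the same condition. Snap25 was called, at 11.3 to 12.7 FPKM against 47.5 to 69.7 (-2.17 ± 0.26 SE, adjusted p = 0.0105 by limma), where 4.11% of the 14230 genes tested were called. Syn1, at 3.02 to 4.01 FPKM against 9.47 to 15.5, had a difference of -1.46 ± 0.32 (SE) and an adjusted p of 0.050 that lay just above the threshold. The groups did not overlap for Snap25, Syn1, Vamp2 (29.6 to 38.4 against 50.0 to 70.3 FPKM) and Stx1a (3.83 to 4.89 against 0.0583 to 3.06 FPKM, higher in the dated samples), 4 of 8 genes, where 33.5% of all genes did not overlap.

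The call of Snap25 was lost with close libraries averaged (-2.14 ± 0.35 SE, adjusted p = 0.0789 by limma, 0 of 8 called and 0.395% of all genes), and without SST040241L or without SST04241LL, when 0 of 8 were called (54 and 57 genes in all). Without the average of SST0-M and SST1-M, 3 were called, Snap25, Syn1 and Sv2a, where 13.7% of all genes were called. Syt1 (3.0 to 3.68 against 2.60 to 4.61 FPKM), Cplx1, Syn2 and Sv2a overlapped between the kinds of title. Of the other presynaptic genes, Ap2a1 and Cltb were called as higher and Atp6v1g2 as lower in the dated samples, and of the SNAREs of other membrane traffic Vti1b was higher and Sec22b and Vamp3 were lower (limma). The pan-neuronal markers had 0 called of 11 and a median of 0.19, the excitatory markers 0 of 7 and -0.55, and the interneuron markers 0 of 6 and -0.61, with 1 gene of each list at an unadjusted p under 0.05. No gene of the glial and endothelial lists was called. Their part in the difference of Snap25 was not tested.

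**Figure D4:**
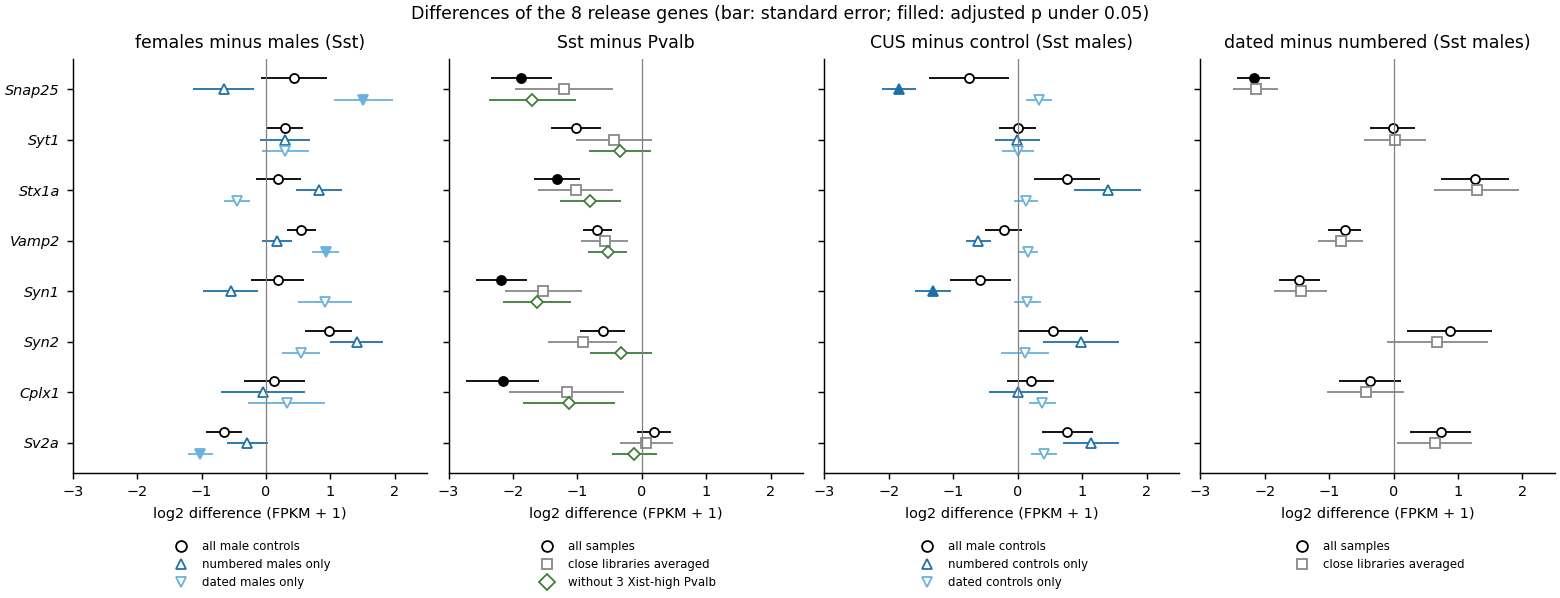
Log2 difference (FPKM + 1) of the 8 release genes with its standard error in the 4 comparisons, under the samples named in each legend, with filled symbols past an adjusted p of 0.05. For Snap25 the sex difference runs from -0.66 with numbered males to 1.51 with dated males, and none of the 8 differences between Sst and Pvalb passes with close libraries averaged.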

How the data were processed

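RNA-seq libraries were made from tdTomato-positive cells sorted from the medial prefrontal cortex. The authors deposited 1 table of FPKM values (fragments scaled by gene length and library size) for 23993 genes in 24 libraries, and read counts were not analysed here, so the depth of each library is unknown. The study's methods name mm9 with TopHat2 and, in the next sentence, mm10 with HISAT2 and StringTie. The submitters' processing notes name TopHat2, Cufflinks, Cuffdiff and mm10. ComBat is named for batch effects without saying whether it was applied to these values, and samples over a stated distance from the group mean were removed. Summed FPKM per library ran from 276023 to 1311420 and the upper quartile from 9.50 to 10.7. Scaling by the authors moves all values of a library together.

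The 8 genes and the gene lists were chosen with earlier results of these data known. Groups came from the labels, and the numbered and dated titles gave a technical split. Near-identical libraries (SD of the log2 ratio over genes above 5 FPKM at most 10% of the next closest pair) were averaged. Values were tested as log2(FPKM + 1) by two-sided moderated tests of limma 3.58.1 (R 4.3.3; a trended, robust eBayes after lmFit; Benjamini-Hochberg over all genes tested, threshold 0.05), for genes averaging more than 0.4 FPKM in the samples of a comparison. Fold changes on this scale understate those of low genes. Every fit used only the groups compared. Script steps were tested on simulated data. Alternatives were the pseudocount (0.1 and 5), no filter, common-median and quantile scaling, a minimum log2 change of 1, all libraries kept separate, subsets of the controls, a replicate block and leaving out each sample. Averaging libraries of a group with an SD under 0.3 was chosen after seeing the data. Genes other than the 8 were named by rule: up to 4 called per list and direction, the most abundant of each list, and the 5 genes most correlated with the 8. Some genes that this rule picks are not reported here. Promoters were read from a RefSeq table of GRCm38.p6, the same assembly as mm10 apart from patches, and gene positions from RefSeq. Lists of presynaptic genes, SNAREs of other membrane traffic and markers of 7 cell types were used as descriptions only.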

Additional observations from a re-analysis of the deposited data

Results flagged for a closer look

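For each of the 8 genes, the highest and lowest sample of the 3 control groups with 4 to 10 samples (Sst females, Sst males and Pvalb males) was set against the rest by Dixon's ratio, the gap to the nearest sample over the whole range. Of the 24 sets of values, 7 held a sample beyond the 95% critical value, and all 7 came from only 2 samples. The chance rate of about 1 in 20 holds for independent sets of normally distributed values. The genes share samples here, so 7 of 24 cannot be weighed against that rate.

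SST-F, the only sample of Sst females whose title has no number, stood apart for 4 genes. Its Snap25 level of 152.4 FPKM, Vamp2 level of 111.6 FPKM and Cplx1 level of 27.4 FPKM were the highest of the 7 females (ratios of 0.97, 0.66 and 0.83). Its Syn2 level of 4.99 FPKM was the lowest (0.82).

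The average of PV0-M and PV2-M was the lowest of the 6 Pvalb samples for 6 genes, and lay beyond the critical value for 3 of them. Syt1 was at 0.543 FPKM, Stx1a at 1.27 FPKM and Syn1 at 7.01 FPKM there (ratios of 0.66, 0.69 and 0.69). The pan-neuronal markers of the same sample were at a mean log2(FPKM + 1) of 1.53 against 3.19 to 3.31 in the other Pvalb samples.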

How the results depend on the processing

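Of 728 refitted differences of the 8 genes, 631 kept direction and side of the threshold, 35 lost and 20 gained a call, and 42 changed sign; causes were not tested. Calls between Sst and Pvalb (4) became 1 with all libraries separate, 0 with close libraries averaged, 2 with Sst males only, 1 to 6 with one sample left out, and 0 without PV1-M, PV4-M and PV5-M. A pseudocount of 0.1 gave 3, without Stx1a (adjusted p = 0.0840 by limma), a pseudocount of 5 gave 5, with Syt1 (0.0396), and leaving out the dated samples or using females only gave 3, without Cplx1 (0.0508 and 0.0699). Sex calls (0) became 1 under quantile scaling, 3 with dated males and 0 to 1 with one sample left out. CUS calls (0) became 2 with numbered controls. Dated against numbered calls (1) became 2 under quantile scaling, 2 with all libraries separate, 0 with close libraries averaged and 0 to 3 with one sample left out.

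Signs of the sex difference changed with numbered males (Snap25 -0.66, Syn1 -0.55, Cplx1 -0.05), with dated males (Stx1a -0.45) and under quantile scaling (Stx1a -0.04, Cplx1 -0.06), and with one sample left out Stx1a ran from -0.16 to 0.34, Syn1 from -0.06 to 0.40 and Cplx1 from -0.25 to 0.32. Sv2a between Sst and Pvalb was -0.11 with females only, -0.02 without dated samples, -0.08 under the block and -0.12 without PV1-M, PV4-M and PV5-M. For CUS, dated controls or the title as a covariate gave Snap25 0.33, Vamp2 0.16, Syn1 0.15 and Syt1 0.00, and Syt1 was 0.01 with a pseudocount of 5, 0.02 at a common median, 0.03 with all libraries separate, 0.03 with close libraries averaged and -0.25 to 0.13 with one sample left out. Dated against numbered, Syt1 was 0.05 at a common median, 0.05 with all libraries separate, 0.02 with close libraries averaged and -0.14 to 0.18 with one sample left out.

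Title numbers did not pair samples: same-numbered samples correlated at -0.04 to 0.06 and not every sample matched its own number best. A replicate block on numbers 1, 3 and 4 gave sex differences of -1.04 for Snap25, -0.41 for Syt1, -0.05 for Vamp2, -1.24 for Syn1 and -1.02 for Cplx1, with 11 of 14286 genes and 0 of the 8 called (0 and 2478 at an unadjusted p under 0.05). A block on numbers 1 to 6 between Sst females and Pvalb males called 3983 of 14452 genes and 5 of the 8.

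Over all genes, sex called 1699 (493 with numbered males, 6032 with dated males, 15 with close libraries averaged, 865 at a minimum log2 change of 1, and 667 to 3552 with one sample left out). Sst against Pvalb called 1133 (491 with males only, 3638 with females only, 14 without PV1-M, PV4-M and PV5-M, 1 with close libraries averaged, 565 at the minimum change, and 389 to 2130 with one sample left out). CUS called 1 (2309 with numbered controls, 19 with close libraries averaged, where CUS is 1 sample assumed to vary like the controls, 6 with controls of both sexes, 3 with no filter, 3 with all libraries separate, and 1 to 3 with one sample left out). Dated against numbered called 585 (381 with no filter, 1091 under quantile scaling, 1769 with all libraries separate, 56 with close libraries averaged, and 54 to 1962 with one sample left out).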
